A study of Mus musculus with 4 samples.

Results

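Human leukocytes recovered from the blood and injured spinal cord of humanised mice were described here through 10 genes of microbial sensing: the Toll-like receptors TLR1, TLR2, TLR4, TLR6, TLR7, TLR8, TLR9 and TLR10, the adaptor MYD88 and the co-receptor CD14. These 10 genes were taken by name from the 33538 human genes of the count matrices, and all 10 were present. They were read only in cell barcodes with over 50% of their UMIs (unique molecular identifiers, counts of captured transcripts) on human genes. TLR3 and TLR5 belong to the pathway list described after the members.

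Toll-like receptors are membrane proteins that bind conserved microbial molecules, or molecules released by damaged tissue. Some sit at the cell surface and respond mainly to lipids and proteins, while others sit in endosomes and respond to nucleic acids. Most pass the signal through the adaptor MYD88 to NF-κB and interferon regulatory factors, and CD14 hands lipopolysaccharide to TLR4. In blood they are best known from monocytes and B cells.

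The hosts were 15 week old huNSG-SGM3 mice, which carry NOD.Cg-Prkdcscid and IL2rgtm1Wjl together with the transgene Tg(CMV-IL3,CSF2,KITLG)1Eav/MloySzJ. This immunodeficient strain expresses the human cytokines IL3, CSF2 and KITLG from a CMV promoter and was engrafted as pups, after irradiation, with human CD34+ cord blood stem cells. Naïve blood came from hosts without surgery, sham blood from hosts at 7 days post-surgery after a T9 laminectomy, and SCI blood and SCI cord from hosts at 7 days post-surgery after a T9 spinal cord injury. Each of the 4 groups was 1 library of pooled animals, sorted for human CD45, with a magnetic enrichment step in the cord only, and all were sequenced in 1 run. Naïve and sham hosts were male and SCI hosts were pooled from both sexes, so host sex and injury cannot be told apart in the comparisons of SCI with naïve or sham blood.

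The matrices held 34161760 UMIs in 8124 barcodes for naïve blood, 36007208 in 6962 for sham blood, 36487994 in 7513 for SCI blood and 4206461 in 231 for SCI cord. After filtering, 6323, 4648, 5931 and 118 human cells were kept, in that order, with median depths of 3697, 5232, 4655 and 9331 human UMIs. Libraries shared few barcode sequences: 16 between naïve and sham blood, 16 between naïve and SCI blood, 5 between sham and SCI blood, 1 between SCI blood and SCI cord, and 0 between the cord and the other blood libraries.

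Levels are given as CPM, the UMIs of a gene per 1000000 human UMIs of a cell class, with ribosomal and mitochondrial genes left out of the total. A ratio between libraries is given on the log2 scale with 0.5 counts added to each sum, for genes that reach 20 counts in both libraries together, and is called past the fold when it reaches 1.5-fold in either direction. Intervals are exact 95% intervals (Poisson for levels, Clopper-Pearson for shares, conditional binomial for ratios). Where a count is 0, the limit given is not the end of such an interval but 3 counts of the total. Both cover counting error only: with 1 library per group there is no replicate spread, and no difference between libraries was tested. Because the assay counts the 3′ ends of transcripts and no transcript lengths were used, levels are compared between cells for 1 gene at a time, not between genes.

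The cells fell into 14 clusters, which were named from marker lists. B-like cells numbered 1272, 568, 940 and 7 in naïve blood, sham blood, SCI blood and SCI cord. In that order T-like cells numbered 4425, 3860, 4835 and 73, monocyte-like cells 141, 94, 18 and 9, and basophil/mast-like cells 95, 118, 130 and 15. Of the defining markers, 10 of 10 were detected in at least 10% of the B-like, monocyte-like and basophil/mast-like cells of each library, and 18 or 19 of 21 in the T-like cells.

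Some cells stood outside these classes. Plasma-like cells made up 6.12% of naïve blood (387 cells, 95% interval 5.54 to 6.74) and numbered 2, 2 and 1 in the sham, SCI and cord libraries. A cluster of 28 cells, 13 of them from the cord, was left unnamed. Its leading genes included CCL26 and EPX, and its cord cells held 1326 UMIs of CLC and 16 of SIGLEC8 but none of EPX, PRG2, PRG3, RNASE2 or RNASE3.

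Over the 3 blood libraries, the members split between B-like and myeloid cells. The myeloid lineage here is the sum of monocyte-like and basophil/mast-like cells. By the mean level over the libraries, 4 of 10 members were highest in B-like cells (TLR6, TLR7, TLR9 and TLR10), 6 were highest in myeloid cells (TLR1, TLR2, TLR4, TLR8, MYD88 and CD14), and 0 were highest in T-like cells. The libraries did not overlap between the highest and the next lineage for 3 of the 4 and for 5 of the 6. The exceptions were TLR9, with 6 UMIs in blood, and TLR1. Among the 15215 genes with at least 20 UMIs in these lineages, 49.4% had no such overlap, and 36.0%, 38.7% and 25.3% were highest in B-like, T-like and myeloid cells. Of the 9 members that reach 20 UMIs, 8 had no overlap, a larger share than the background, but the members were chosen with earlier results of these data known, so nothing particular to them is read from it. The spreads given with these means are over 3 libraries of different conditions, so they hold any effect of condition as well.

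**Figure D1:**
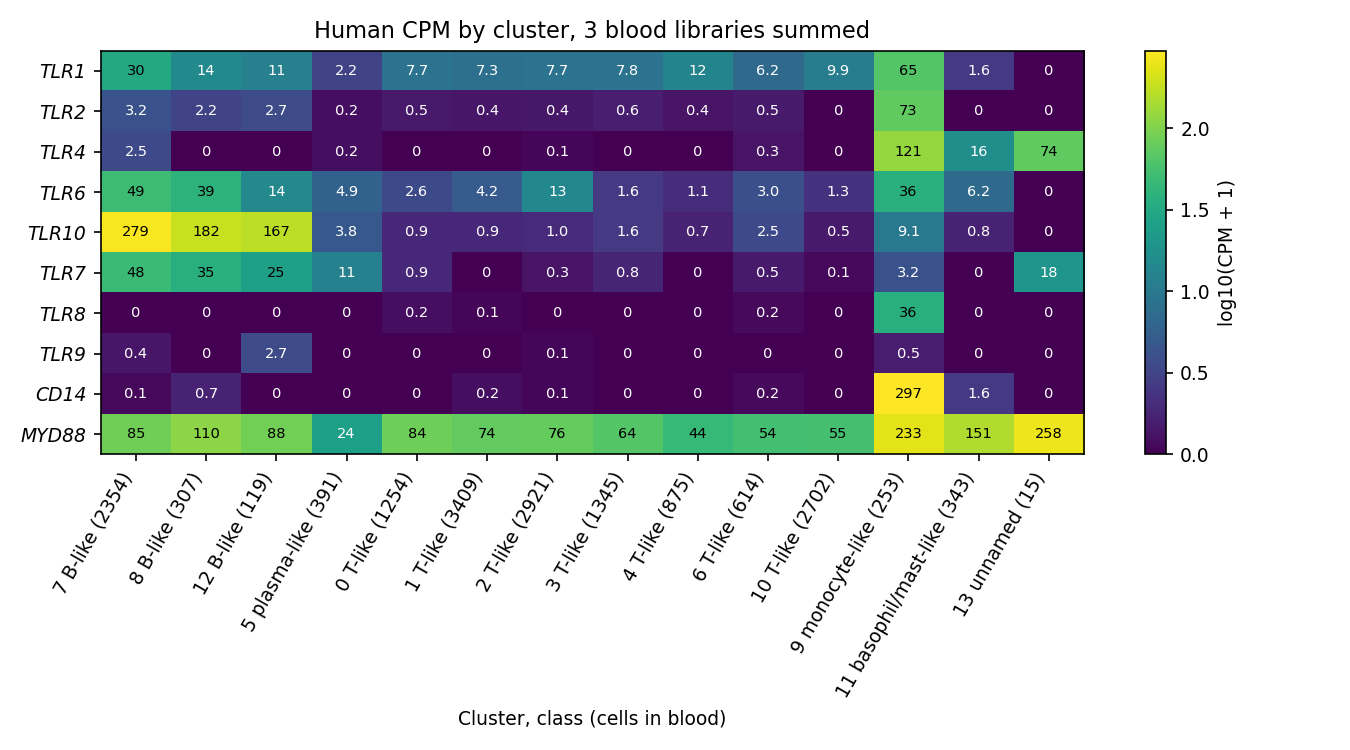
Level of each member in each of 14 cell clusters, summed over the 3 blood libraries; colour is log10 of CPM plus 1, the printed number is the CPM itself, and cell numbers stand on the cluster axis. TLR10 and TLR7 stand out in the B-like clusters, TLR2, TLR4, TLR8 and CD14 in the monocyte-like cluster, and MYD88 was counted in every cluster.

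Among the surface receptors, TLR10 had the largest share of its UMIs in 1 class. TLR10 (ENSG00000174123) pairs with other receptors of the TLR1 subfamily and has no settled ligand. In B-like cells it stood at 249, 273 and 265 CPM in naïve, sham and SCI blood, and in T-like cells at 1.23, 1.14 and 1.03. The B-like values were close together and far above those of T-like, monocyte-like and basophil/mast-like cells, and 96.5% of its 2505 blood UMIs lay in B-like cells. Plasma-like cells had 2.05 CPM in naïve blood, while the 2 such cells of sham blood held 8 UMIs (121 CPM, 52.0 to 238). The mean was 262 ± 12.5 (SD, n = 3 libraries) in B-like, 4.95 ± 3.39 in myeloid and 1.13 ± 0.100 in T-like cells.

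The share of B-like cells with a TLR10 UMI was 47.6%, 62.9% and 55.0% in naïve, sham and SCI blood, at median depths of 3671, 5646 and 4975 UMIs. In T-like cells, taken as the class to compare with, the share was 0.316%, 0.415% and 0.331% at 3561, 5132 and 4614 UMIs. With each cell thinned to 1000 UMIs, the B-like shares were 17.7%, 15.7% and 15.9%, and sham blood no longer had the highest share. The cause of the differences between libraries was not tested. Thinned T-like cells gave 0.0904% and 0.0414% in naïve and SCI blood and 0 of 3860 cells in sham blood, which allows a share of up to 0.0777%.

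TLR10 was found across the B-like clusters. Summed over blood, it stood at 279 CPM in the cluster led by TCL1A and VPREB3, at 182 in the cluster led by IGHG1 and SSPN, and at 167 in the smallest B-like cluster of 119 cells. Its distance from myeloid cells, 5.73 on the log2 scale, rested on 18 myeloid UMIs, 13 of them in the monocyte-like cells of sham blood, and widened to between 6.41 and 6.82 under 6 other settings.

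TLR6 (ENSG00000174130), which pairs with TLR2 to sense diacylated lipopeptides, was also highest in B-like cells but less sharply. Its B-like level was 51.3, 43.3 and 41.5 CPM in naïve, sham and SCI blood. The monocyte-like level was 35.6, 37.2 and 34.2, on 28, 34 and 6 UMIs, and basophil/mast-like cells had 2, 2 and 4 UMIs. B-like cells averaged 45.4 ± 5.2, myeloid cells 22.9 ± 6.51 and T-like cells 4.70 ± 0.713, a 1.98-fold step from B-like to myeloid cells with no overlap. Against monocyte-like cells alone, the counting intervals overlapped in each blood library.

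Within T-like cells, TLR6 was highest in the cluster led by FOXP3, CTLA4 and IL2RA, genes of regulatory T cells. This contrast was chosen after its values were seen. The FOXP3 cluster had 15.7, 11.9 and 12.3 CPM in naïve, sham and SCI blood, against 2.27, 3.02 and 2.58 in the other T-like cells. The ratio was 6.91-fold (4.09 to 11.96), 3.94-fold (2.50 to 6.23) and 4.76-fold (2.84 to 7.90), on 45, 44 and 29 UMIs. Median depth was lower in the FOXP3 cluster in each of these libraries, at 2986, 3996 and 3833 UMIs against 3737, 5540 and 4729. TLR1 did not share this pattern, with ratios of 1.11, 0.804 and 0.923 whose intervals all included 1. The same held for TLR10, at 0.504, 0.932 and 1.28. MYD88 was slightly higher in the FOXP3 cluster, at 1.07 (0.92 to 1.25), 1.20 (1.05 to 1.37) and 1.19 (1.004 to 1.41).

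TLR1 (ENSG00000174125), the partner of TLR2 for triacylated lipopeptides, was spread over 3 lineages. In monocyte-like cells it stood at 75.0, 59.1 and 45.6 CPM in naïve, sham and SCI blood, on 59, 54 and 8 UMIs. B-like cells had 28.2, 28.8 and 25.3, and T-like cells 8.69, 8.36 and 7.27. The monocyte-like value was the highest of these in each blood library, although in SCI blood its interval of 19.7 to 89.9 took in the B-like value. Since basophil/mast-like cells had 1, 1 and 0 UMIs, the myeloid lineage averaged 35.7 ± 22.2, which overlapped with 27.4 ± 1.88 in B-like cells. T-like cells, at 8.11 ± 0.743, lay below both and still held 49.5% of the blood UMIs of TLR1 through their number.

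TLR2 (ENSG00000137462), which senses bacterial lipoproteins with TLR1 or TLR6, was a monocyte-like transcript. Its level there was 85.2, 71.2 and 22.8 CPM in naïve, sham and SCI blood and 103 in the cord, on 67, 65, 4 and 18 UMIs. B-like cells had 3.90, 2.12 and 2.71 in blood and T-like cells 0.692, 0.301 and 0.229. Monocyte-like cells held 73.6% and 86.7% of the TLR2 UMIs of naïve and sham blood. Of the 17 in SCI blood they held 23.5%, and B-like cells held 52.9%. Basophil/mast-like cells had 0 UMIs in all 4 libraries, which allows up to 11.2, 5.43, 6.52 and 23.0 CPM. Myeloid cells averaged 38.0 ± 29.1, B-like cells 2.91 ± 0.908 and T-like cells 0.407 ± 0.249, with no overlap between neighbours in that order.

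TLR4 (ENSG00000136869), the receptor for lipopolysaccharide, followed the same order and was found in basophil/mast-like cells too. Monocyte-like cells had 119, 128 and 85.6 CPM in naïve, sham and SCI blood, and basophil/mast-like cells 37.3, 5.43 and 15.2 on 10, 3 and 7 UMIs. T-like cells had 1 UMI in each blood library among 4425, 3860 and 4835 cells, and B-like cells 1.95, 1.70 and 2.41 CPM. Lineage means were 71.7 ± 33.2 in myeloid, 2.02 ± 0.361 in B-like and 0.0648 ± 0.0106 in T-like cells, without overlap. A TLR4 UMI was seen in 46.1%, 67.0% and 66.7% of monocyte-like cells, at median depths of 6054, 9751.5 and 10328.5 UMIs. After thinning to 1000 UMIs these shares were 13.5%, 9.57% and 0 of 18, the last of which allows up to 16.7%.

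CD14 (ENSG00000170458), which binds lipopolysaccharide and passes it to TLR4, was the co-receptor examined. Monocyte-like cells had 361, 250 and 257 CPM in naïve, sham and SCI blood and 452 in the cord, on 284, 228, 45 and 79 UMIs. T-like cells had 1, 2 and 2 UMIs in the blood libraries and B-like cells 2, 0 and 0. Nearly all CD14 was thus monocyte-like: 98.4% of its 566 blood UMIs. Myeloid cells averaged 166 ± 99.3, and B-like and T-like cells, at 0.186 ± 0.322 and 0.104 ± 0.0236, did not differ beyond their spread.

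A CD14 UMI was found in 53.9%, 47.9% and 50% of monocyte-like cells of naïve, sham and SCI blood, and in 0.0226%, 0.0518% and 0.0414% of T-like cells. After thinning to 1000 UMIs the monocyte-like shares were 24.1%, 16.0% and 16.7%, and the T-like shares were 0 of 4425, 0 of 3860 and 0 of 4835 cells, which allows up to 0.0678%, 0.0777% and 0.0620%. Had every monocyte-like cell held the class level, 83.1%, 85.7% and 90.02% would have carried a CD14 UMI at their depth. CD14 was therefore uneven among these cells in each library, whereas the same calculation for TLR4 gave 47.2%, 66.3% and 55.5%, close to the shares seen except in the 18 cells of SCI blood.

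The monocyte-like blood cells were then split, a division chosen after the values were seen, into 130 with and 123 without a CD14 UMI. Their median depths with and without CD14 were 6448.5 and 5832 UMIs in naïve, 10623 and 8511 in sham and 10777 and 9880 in SCI blood, so cells with CD14 were the deeper in each library. The 10 monocyte markers summed to 102377 CPM in cells with CD14 and 36739 in cells without, S100A9 being the most abundant in both. The 6 markers of conventional dendritic cells summed to 154 and 469. CLEC10A was the most abundant of them in cells without CD14 (165 UMIs). CLEC9A, XCR1 and FLT3 were at 0 in cells with CD14 in each library, and in cells without CD14 they were at 0 in naïve and SCI blood but not in sham blood. The 8 neutrophil markers differed in 2 libraries only, at 335 with and 784 without CD14 in naïve blood, 296 and 295 in sham blood, and 178 and 609 in SCI blood. The 21 T markers were higher with CD14, most of all in sham blood: 757 and 605 in naïve, 1377 and 730 in sham and 1068 and 1019 in SCI blood. The 10 basophil/mast markers had 45 UMIs with CD14 in naïve blood and 1 UMI elsewhere. The part of depth and of these markers in the split was not tested.

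TLR4 was carried by both sides of that split, at 126 CPM (105 to 150) with CD14 and 114 (92.5 to 139) without. TLR2 was at 79.6 (63.1 to 99.0) and 64.4 (48.6 to 83.6) over blood, but the libraries went different ways: 79.2 with and 92.4 without CD14 in naïve blood, 86.4 and 53.8 in sham blood, and 4 and 0 UMIs in SCI blood. TLR8 was higher with CD14, 45.8 (33.5 to 61.0) against 24.1 (14.9 to 36.9), with intervals that overlapped slightly. TLR6 was at 45.8 with CD14 and 25.3 (15.8 to 38.3) without, and TLR1 at 53.7 (40.4 to 70.1) and 77.0 (59.7 to 97.8). Neither of these orders held in SCI blood, where each side had 5 UMIs or fewer of either gene. TLR10 was counted in 3 UMIs with CD14 and 14 without, 11 of the 14 from sham blood. The 10 B markers summed to 163 with and 175 CPM without CD14 in sham blood, to 179 and 327 in naïve blood and to 156 and 1066 in SCI blood, and their part in the TLR10 values was not tested.

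Of the endosomal receptors, TLR7 (ENSG00000196664), which senses single-stranded RNA, lay in B-like and plasma-like cells. B-like cells had 51.6, 44.9 and 38.5 CPM in naïve, sham and SCI blood, on 185, 106 and 128 UMIs. T-like cells had 0.461, 0.301 and 0.229, and monocyte-like cells had 5, 1 and 0 UMIs. Plasma-like cells of naïve blood had 10.9 CPM on 48 UMIs, which made 19.7% of the TLR7 UMIs of that library. B-like cells averaged 45.0 ± 6.52, myeloid cells 1.81 ± 2.56 and T-like cells 0.330 ± 0.119, the last pair overlapping.

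Plasmacytoid dendritic cells are another known source of TLR7 and TLR9, and no cluster took their name from its markers. Over blood and cord, 5 of their 6 markers were found, mainly in B-like cells: 417 of 427 UMIs of LILRA4, 1831 of 1894 of PLD4, 3491 of 4784 of TCF4 and 446 of 677 of LAMP5. CLEC4C had 13 UMIs in all, 11 of them in B-like cells, and SCT had 0. The part of such cells in the B-like levels of TLR7 and TLR9 was not tested.

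TLR8 (ENSG00000101916), the other receptor for single-stranded RNA, was monocyte-like instead. Its level there was 45.8, 29.6 and 22.8 CPM in naïve, sham and SCI blood, on 36, 27 and 4 UMIs. B-like cells had 0 UMIs in each, which allows up to 0.836, 1.27 and 0.903 CPM, and T-like cells had 2, 1 and 0 UMIs. These small counts put 95.7% of the 70 blood UMIs in monocyte-like cells. TLR7 and TLR8 thus lay in different lineages in all 3 blood libraries, as far as these depths show.

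TLR9 (ENSG00000239732), the receptor for unmethylated CpG DNA, was near the limit of detection, with 1, 3, 2 and 1 UMIs in naïve blood, sham blood, SCI blood and SCI cord. Of the 6 blood UMIs, 4 lay in B-like cells. No ratio between libraries could be given for TLR9.

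MYD88 (ENSG00000172936), the adaptor that joins most of these receptors to their kinases, was found in every class. Monocyte-like cells had 249, 235 and 148 CPM in naïve, sham and SCI blood, and basophil/mast-like cells 190, 157 and 120. B-like cells had 91.4, 89.0 and 85.8, and T-like cells 73.1, 70.3 and 59.0. Myeloid cells, at 189 ± 55.3, were above B-like cells at 88.8 ± 2.83, which were above T-like cells at 67.5 ± 7.46, and none of these neighbours overlapped. Through their number T-like cells held 66.7% of the blood UMIs of MYD88, although of the receptors among the members they held few transcripts apart from TLR1 and TLR6.

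MYD88 was also uneven among the T-like clusters. Summed over blood, it ranged from 84.2 CPM in the cluster led by KLRC1 and GNLY, genes of natural killer and cytotoxic T cells, to 44.2 in the cluster led by NRP2 and AK5. The cluster led by NT5E and SERPINF1, with CD8B among its leading genes, had 55.0. A MYD88 UMI was found in 18.7%, 25.2% and 18.5% of T-like cells in naïve, sham and SCI blood. No class that should lack MYD88 was available as a background.

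**Figure D2:**
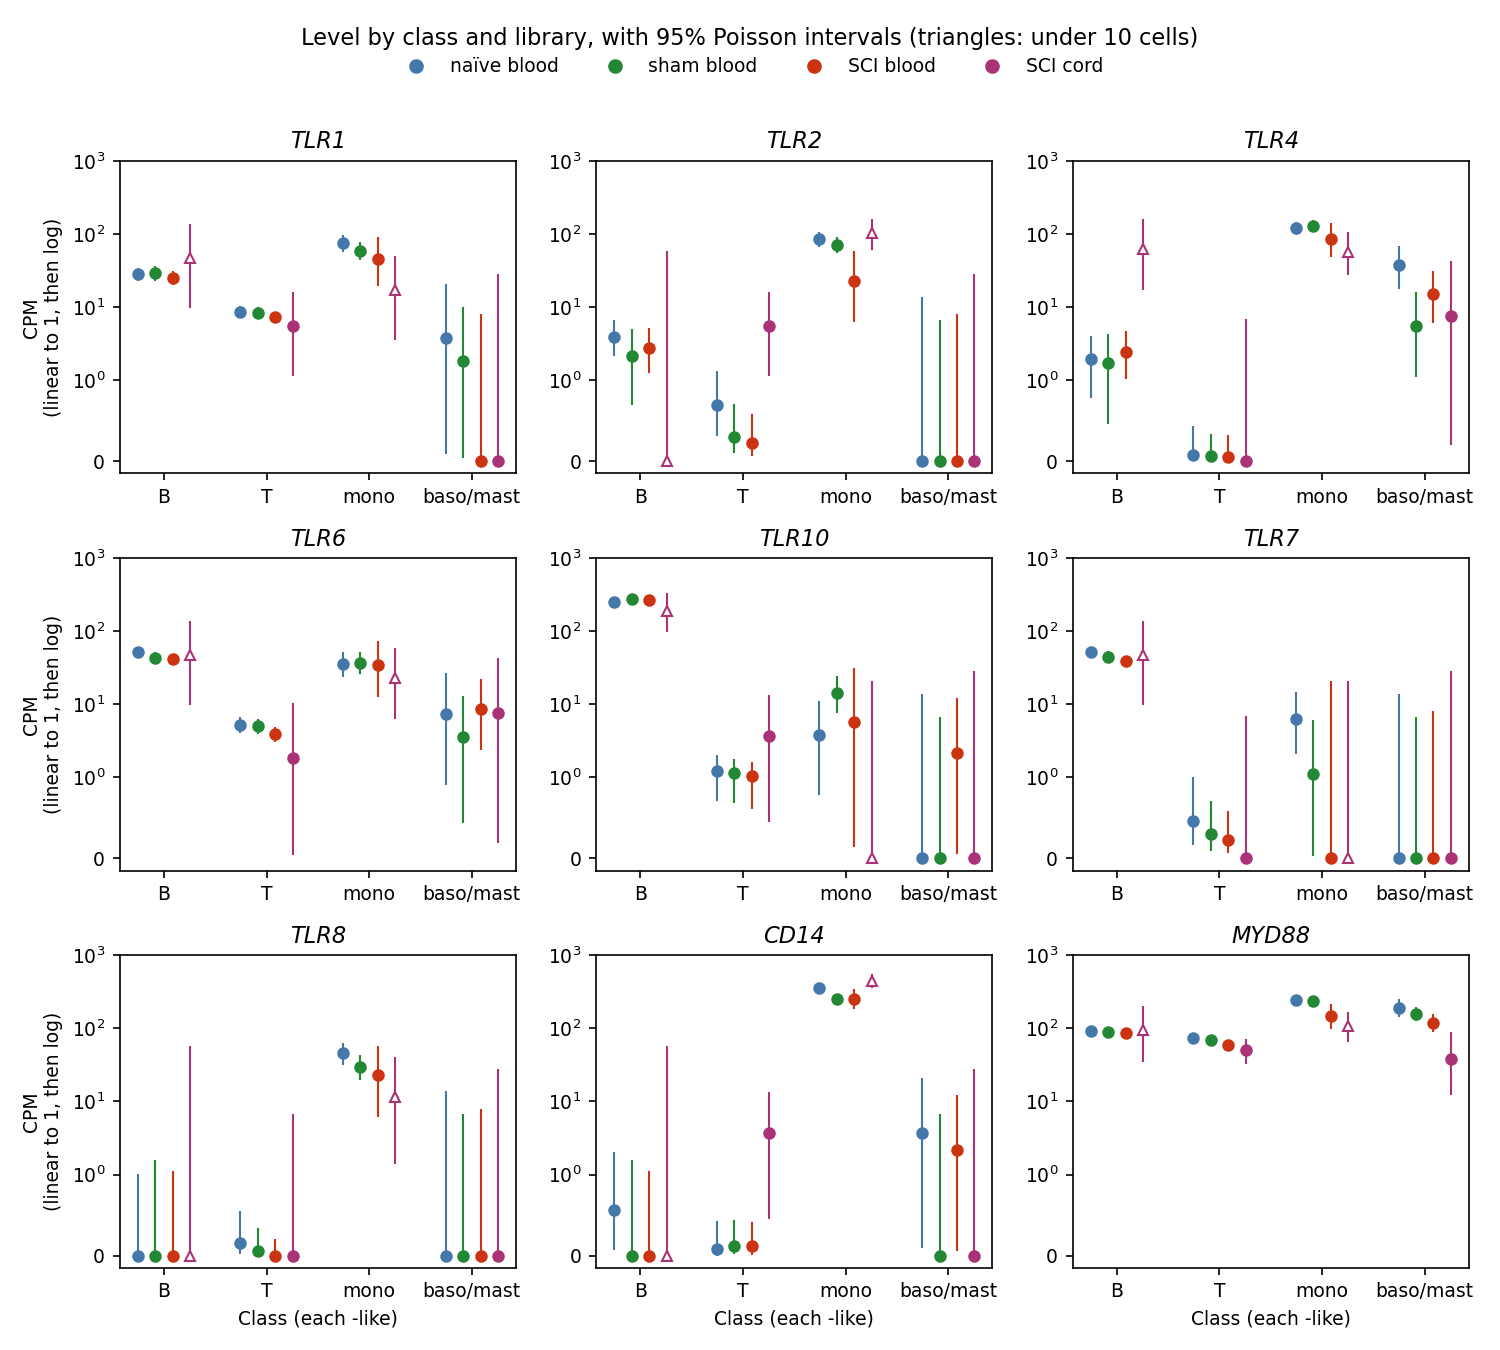
Level of 9 members (TLR9 is left out) in 4 cell classes and 4 libraries, in CPM on an axis that is linear up to 1 and logarithmic above; points are levels, bars are 95% Poisson intervals, and triangles mark classes with under 10 cells. TLR10 in B-like cells ran from 249 to 273 over the blood libraries, while TLR2 in monocyte-like cells was 22.8 in SCI blood against 71.2 and 85.2.

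The genes with the most similar pattern to each member were taken over 13 profiles, each 1 class in 1 blood library, by Pearson's r on log2 levels. The profiles are few and share libraries, so these values are descriptions. TLR10 was nearest to RUBCNL (r = 0.982), GDI2 (0.973) and LINC00926 (0.967), and TLR7 to MEF2C-AS1 (0.987), KLHL14 (0.982) and CDK14 (0.975). CD14 was nearest to FPR1 (0.990), TNNT1 (0.990) and NFAM1 (0.985), and TLR8, on 70 UMIs, to CSF3R (0.999), FPR2 (0.998) and AATBC (0.998). TLR4 was nearest to KSR1 (0.971), TNFAIP2 (0.9698) and OAZ1 (0.967).

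The remaining members had neighbours of other kinds. TLR2 was nearest to NLRC4 (0.990), QPCT (0.976) and APLP2 (0.972), TLR1 to GNA12 (0.971), DIP2B (0.955) and DAGLB (0.944), TLR6 to MARCH1 (0.990), HLA-DMA (0.975) and MYO7B (0.973), and MYD88 to PLEKHO2 (0.978), NEK6 (0.975) and HIPK3 (0.974). No member was among the nearest genes of another. Most of these neighbours depend on how cells are grouped: over 37 profiles of single clusters, 7 of the 27 were named again, among them all 3 of CD14.

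The first comparison, sham over naïve blood, asks what laminectomy without injury goes with. Most members were within the fold. Over all cells, 1 of the 9 members with enough counts was past the fold, against 12.9% of all genes: TLR7, at 5.55 CPM in sham and 11.1 in naïve blood, a log2 ratio of −0.99 (−1.33 to −0.67). This share is near the background and is not a result about the members. Within B-like cells the TLR7 ratio was −0.20 (−0.56 to 0.15). B-like cells were 12.2% of sham and 20.1% of naïve blood, and plasma-like cells 0.0430% and 6.12%. With equal weight for the 4 classes, an alternative chosen after seeing the data, TLR7 was at −0.33 and no longer past the fold, while TLR8 was past it at −0.63.

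Within classes, few members were past the fold between the sham and naïve libraries in the main setting. In B-like cells 0 of 5 members were past the fold (background 11%), in T-like cells 0 of 4 (background 8.18%), and in basophil/mast-like cells 0 of 1 (background 22.4%). TLR10 in T-like cells, on 19 sham and 16 naïve UMIs, passed the fold under 4 other settings, upwards with over 90% human UMIs (0.62) and downwards with marker gates (−0.61), per-cell averages (−0.88) and equal cluster weights (−0.62). In monocyte-like cells 1 of 7 was (background 17.1%), again near the background: TLR8 at 29.6 in sham and 45.8 in naïve blood, a ratio of −0.62 whose interval, −1.41 to 0.13, included 0. CD14 in monocyte-like cells, at 250 and 361 CPM, had a ratio of −0.53 (−0.79 to −0.28), short of the fold but with an interval below 0. These calls moved with the setting. CD14 passed the fold with marker gates (−0.59), with cells thinned (−0.89) and averaged per cell (−0.70), and TLR1 did with marked barcodes removed (−0.60) and cells thinned (−1.02). TLR8 fell short of it at −0.56 with marked barcodes removed and at both other resolutions. The median ratio over the 9 members was −0.22, beside 0.07 over 14536 genes. The count of 1 member over all cells became 5 when cells were thinned to 1000 UMIs or averaged cell by cell. The 4 added, all lower in sham blood under these settings, were TLR2 (−0.69), TLR4 (−0.70), TLR10 (−0.85) and CD14 (−1.01) with thinning, and TLR2 (−0.64), TLR8 (−0.98), TLR10 (−0.64) and CD14 (−0.83) with averaging. TLR4 thereby changed sign: in the main setting it was higher in sham blood, at 6.18 and 5.13 CPM (0.27, −0.11 to 0.65). It was also below 0 with averaging (−0.20) and with equal class weights (−0.23).

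SCI over naïve blood asks how injured hosts differ from hosts without surgery. Over all cells 5 of 9 members were past the fold, all lower in SCI blood, against 17.3% of all genes, a larger share than the background. CD14 fell from 13.1 to 2.23 CPM, a log2 ratio of −2.53 (−3.02 to −2.10). TLR2 fell from 4.13 to 0.791, a ratio of −2.35 (−3.22 to −1.63), and TLR4 from 5.13 to 1.54, a ratio of −1.72 (−2.34 to −1.17). TLR8 went from 38 UMIs to 4, a ratio of −3.06 (−5.16 to −1.74), and TLR7 from 244 to 133, a ratio of −0.84 (−1.15 to −0.53). Of these 5, the first 4 named are the monocyte-like transcripts described above. In SCI blood, though, monocyte-like cells held 23.5% of the UMIs of TLR2 and 45.5% of those of TLR4.

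Monocyte-like cells were 0.303% of SCI blood (18 cells, interval 0.180 to 0.479) and 2.23% of naïve blood (141 cells, interval 1.88 to 2.62). With equal weight for the 4 classes, the ratios were −0.50 for CD14, −1.80 for TLR2, −0.62 for TLR4, −1.01 for TLR8 and −0.59 for TLR7. CD14 was then short of the fold, and TLR4 and TLR7 were just past it. TLR10 and TLR1, which B-like and T-like cells carry, had ratios of 0.01 and −0.33 over all cells and were not past the fold.

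Within monocyte-like cells 4 of 7 members were past the fold, all lower in SCI blood, against a background of 31%. That is a larger share than the background, although 2 of the 4 intervals included 0. TLR2 stood at 22.8 CPM on 4 UMIs in SCI and 85.2 in naïve blood, a ratio of −1.74 (−3.82 to −0.48). MYD88 stood at 148 and 249, a ratio of −0.72 (−1.40 to −0.15). TLR1 was at −0.64 (−1.99 to 0.36) and TLR8 at −0.85 (−2.96 to 0.48). CD14 was at −0.48 (−0.98 to −0.03), short of the fold, and TLR4 at −0.44 (−1.37 to 0.31). The MYD88 ratio turned to 0.75 when cells were thinned to 1000 UMIs. Thinning is 1 random draw, here from 26 MYD88 UMIs in SCI cells with a median depth of 10328.5 UMIs. It leaves few of them and no interval was computed, so the main direction was not kept and the thinned one is not read. The count of 4 rests on the setting too. TLR4 passed the fold with marked barcodes removed (−0.60), with totals scaled by the trimmed mean of M values (−0.59) and with cells thinned (−2.34), and CD14 under the first 2 of these (−0.60 and −0.63).

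Outside monocyte-like cells fewer values moved. In B-like cells 0 of 6 members were past the fold (background 11.4%), and TLR2 came nearest at −0.50 (−1.92 to 0.78), on 9 and 14 UMIs. TLR7, at −0.42 (−0.76 to −0.09) from 51.6 to 38.5 CPM, was the one with an interval below 0. These counts rest on the setting. In the TCL1A cluster alone, an alternative added after seeing the data, TLR7 (−0.62, from 60.2 to 39.2 CPM) and TLR2 (−0.60, on 9 and 11 UMIs) were past the fold. TLR2 was also past it with values averaged per cell (−0.65), with all human genes in the total (−0.598) and with equal cluster weights (−2.19), the last of which took TLR6 from −0.30 to −0.78. In the cluster led by IGHG1 and the smallest B-like cluster, TLR2 had 2 and 1 UMIs in naïve and 0 and 0 in SCI blood. TLR6 had 2 and 1 UMIs there in SCI blood, so both equal-weight values rest on few UMIs. In T-like cells 0 of 4 members were past the fold (background 12.5%), and TLR10 was past it when averaged per cell (−0.91). In basophil/mast-like cells the 1 member with enough counts was (background 22%): MYD88 at 120 in SCI and 190 in naïve blood, a ratio of −0.67 (−1.25 to −0.09). It was short of the fold with marker gates (−0.44), library totals scaled by the trimmed mean of M values (−0.57) and per-cell averages (−0.45). A single member cannot be read against a background share. The median over all cells was −0.84 for the 9 members and 0.07 for 14540 genes. With cells thinned, 3 in place of 5 members were past the fold over all cells, because the others were left with under 20 counts and were not compared. Per-cell averages brought TLR1 (−0.62) and TLR6 (−0.61) past the fold.

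MYD88 in T-like cells was lower in SCI blood within the fold, at 59.0 CPM against 73.1 in naïve and 70.3 in sham blood. The ratios were −0.31 (−0.44 to −0.18) over naïve and −0.25 (−0.37 to −0.13) over sham blood. Of the 3 T-like clusters with the least MYD88 over blood, 2 made up more of SCI blood. The cluster led by NRP2 (44.2 CPM) was 2.72%, 2.65% and 9.78% of naïve, sham and SCI blood, and the cluster led by NT5E (55.0 CPM) was 10.4%, 13.2% and 24.1%. The third, led by KIF18B (53.5 CPM), was nearly level at 3.45%, 3.79% and 3.71%. With equal weight for the T-like clusters, an alternative added after seeing the data, the ratios were −0.17 and −0.13. Other settings gave larger ones: −0.49 and −0.38 with cells thinned, and −0.40 and −0.34 with all human genes in the total. Within the T-like clusters, looked at after seeing the data, the level in SCI blood was below both other libraries in 5 of 7. It was 82.8, 74.3 and 66.8 in naïve, sham and SCI blood in the cluster led by CCR10, and 59.0, 63.9 and 48.8 in that led by NT5E.

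SCI over sham blood asks what injury adds to laminectomy, and it shares the SCI library with the comparison above. Over all cells 4 of 9 members were past the fold, all lower in SCI blood, against 12.7% of all genes, again above the background. They were CD14 at 2.23 against 11.2 CPM (ratio −2.31, −2.81 to −1.87), TLR2 at 0.791 against 3.65 (−2.17, −3.06 to −1.43), TLR4 at 1.54 against 6.18 (−1.99, −2.61 to −1.45) and TLR8 at 0.186 against 1.36 (−2.73, −4.84 to −1.36). All 4 are monocyte-like transcripts by level, and monocyte-like cells were 2.02% of sham blood and 0.303% of SCI blood. In SCI blood such cells held 93.75% of the UMIs of CD14, 23.5% of TLR2, 45.5% of TLR4 and 100% of TLR8. B-like cells held 52.9% of those of TLR2. With equal weight for the 4 classes only TLR2, at −1.51, was past the fold. TLR4 was then at −0.39, TLR8 at −0.38 and CD14 at 0.05, a change of sign.

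Within classes the SCI and sham libraries differed in few members. In B-like cells 0 of 5 were past the fold (background 9.99%), in T-like cells 0 of 4 (background 11.3%), and in basophil/mast-like cells 0 of 1 (background 20.1%), although MYD88 there was at −1.04 with cells thinned. In monocyte-like cells 2 of 7 were (background 30.3%), a share near the background. These were TLR2, at 22.8 against 71.2 CPM (−1.48, −3.56 to −0.22), and MYD88, at 148 against 235 (−0.64, −1.31 to −0.08). MYD88 again turned, to 0.78, with cells thinned, on the same few UMIs of SCI blood. TLR4, at −0.54 and short of the fold, passed it under 5 other settings, at values from −0.60 to −0.69, and TLR1 passed it when averaged per cell (−0.66). CD14 within monocyte-like cells was alike, at 257 and 250 CPM, a ratio of 0.05 (−0.45 to 0.51). The medians over all cells were −0.34 for the 9 members and 0.01 for 14496 genes. With cells thinned, 1 member in place of 4 was past the fold, because the others were left with under 20 counts and were not compared.

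**Figure D3:**
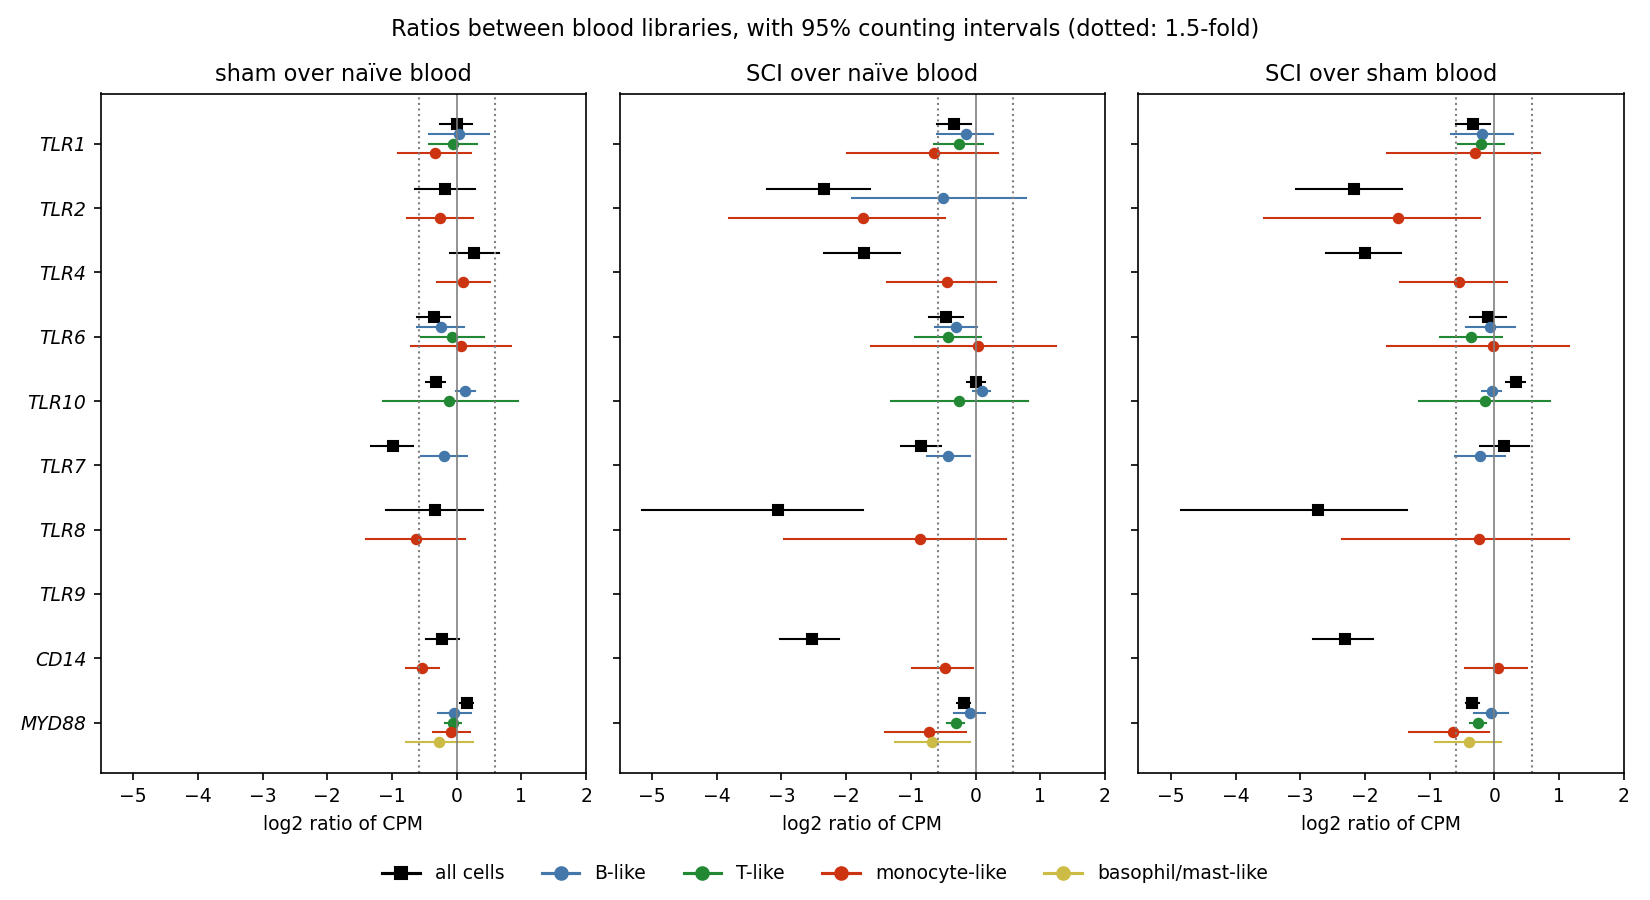
Log2 ratio of each member with at least 20 counts in the 3 comparisons of blood libraries, over all cells (black squares) and within classes (coloured circles), with 95% counting intervals; dotted lines mark 1.5-fold. Over all cells CD14, TLR2, TLR4 and TLR8 lie between −3.06 and −1.72 in the comparisons with SCI blood, while no B-like or T-like value passes the dotted lines.

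SCI cord over SCI blood compares the human cells of the lesion area with those in the circulation of injured hosts. Over all cells 5 of 8 members were past the fold, 3 higher and 2 lower in the cord, against 40% of all genes, a share somewhat above a background that was itself high. CD14 was at 76.4 CPM in cord and 2.23 in blood, a ratio of 5.09 (4.56 to 5.64). TLR2 was at 19.8 and 0.791 (4.64, 3.65 to 5.66), and TLR4 at 33.0 and 1.54 (4.42, 3.70 to 5.16). TLR10 was lower, at 15.1 and 41.9 (−1.43, −2.29 to −0.77), and TLR7, on 3 cord UMIs, had a ratio of −0.91 (−3.43 to 0.45). B-like cells were 5.93% of the cord library (7 cells) and 15.8% of SCI blood. They held 75% of the 16 cord UMIs of TLR10 and 100% of those of TLR7. MYD88 was at 66.0 and 65.2, a ratio of 0.03 that thinning took to 0.87, as it took TLR6 from 0.11 to 1.44 and TLR7 to −0.06. Before thinning these 3 members had 70, 11 and 3 cord UMIs, of which thinning leaves few. The median was 0.10 over the 8 members and −0.01 over 13382 genes.

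The cord cells that carried these transcripts were few, and no cord barcode had been removed as a doublet. Monocyte-like cells were 7.63% of the cord library (9 cells, interval 3.55 to 14.0) and 0.303% of SCI blood. These 9 cells held 79 of the 81 CD14 UMIs and 18 of the 21 TLR2 UMIs of the cord. TLR4 was placed differently: 20 of its 35 cord UMIs lay in the 13 cord cells of the unnamed cluster, at 158 CPM (96.4 to 244), 10 lay in monocyte-like cells and 4 in 1 B-like cell. The unnamed cluster had 0 UMIs of CD14 and TLR2 in the cord, so TLR4 there came without its co-receptor at this depth. CD14 in monocyte-like cells was 452 CPM (357 to 563) in the cord and 257 (187 to 344) in SCI blood.

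Only T-like and basophil/mast-like cells were numerous enough to compare by class. In T-like cells 1 of 4 members was past the fold, below the background of 37.2%: TLR10, on 2 cord UMIs in 1 cell, with a ratio of 2.13 and an interval of −1.30 to 3.91. Under 2 other settings this value was below 0. The other members moved as well, so the count rests on the setting. TLR1, on 3 cord UMIs, passed the fold under 4 settings (−0.62 to −1.18), and TLR6, on 1 cord UMI, under 3 in both directions (0.71, −0.63 and −0.95). MYD88 went from −0.21 to 1.24 with cells thinned, a single draw that leaves few of its 27 cord UMIs. In basophil/mast-like cells the 1 member with enough counts was past the fold (background 39.4%): MYD88 at 38.3 CPM on 5 UMIs in the cord and 120 in blood, a ratio of −1.52 (−3.32 to −0.33). With 118 cord cells and a magnetic enrichment step in the cord alone, tissue and sample handling cannot be told apart. With equal weight for the classes compared, TLR4, TLR7 and TLR10 changed sign over all cells, CD14 went from 5.09 to 0.99 and MYD88 from 0.03 to −1.0002. That setting uses T-like and basophil/mast-like cells alone, so it leaves out the unnamed cluster as well as the B-like and monocyte-like cells. The cells used held 0 cord UMIs of TLR7, 1 of TLR4 and 2 of TLR10, so these changes of sign are not read as differences.

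The wider pathway was read from a list of 50 further gene symbols: other receptors, chaperones, adaptors, kinases, transcription factors and brakes of Toll-like receptor signalling. Of these, 48 were in the matrix under the symbol listed. The others, PRAT4A and TASL, are further symbols of CNPY3 and CXorf21, which are also listed. Among the genes found, 46 had at least 20 UMIs in the 3 lineages of blood. B-like cells had the highest mean level for 19, T-like cells for 13 and myeloid cells for 14. Of all genes 36.0%, 38.7% and 25.3% were highest in these lineages, so the 13 in T-like cells are a smaller share than the background.

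TLR5, the flagellin receptor, was the receptor highest in T-like cells, at 14.3, 16.5 and 18.6 CPM in naïve, sham and SCI blood, against 1.95, 0.424 and 1.20 in B-like cells. In blood it was highest in the T-like cluster led by NT5E (25.3) and in that led by FZD3 and GNG4 (24.0). TLR3, the receptor for double-stranded RNA, had 25 blood UMIs in all. SIGIRR, a brake on these receptors, averaged 170 CPM in T-like cells and 47.8 in B-like cells. TNFAIP3, which limits NF-κB signalling, averaged 78.8 in T-like and 39.4 in B-like cells.

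Other genes that serve the receptors, chosen here after their values were seen, lay in more than 1 lineage with the exception of CD36. CD36, a co-receptor for lipids, averaged 273 CPM in myeloid, 2.27 in B-like and 0.441 in T-like cells, and IRAK3, an inhibitory member of the IRAK family, 62.8, 13.5 and 5.66. UNC93B1, which carries endosomal receptors to their compartment, averaged 184 in B-like, 146 in myeloid and 17.7 in T-like cells. CD180 and LY86, a receptor and its partner, averaged 130 and 207 in B-like, 39.9 and 90.9 in myeloid and 0.877 and 2.09 in T-like cells. Monocyte-like cells had LY86 at 172, 141 and 194 in naïve, sham and SCI blood, near the 181, 198 and 243 of B-like cells, and CD180 at 72.5, 44.9 and 68.5. LY96, the partner of TLR4 that binds lipopolysaccharide, was at 42.8, 40.1 and 63.2 in B-like, T-like and myeloid cells.

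In sham over naïve blood the list had 1 gene past the fold upwards and 2 downwards of 45 tested over all cells, with a median log2 ratio of 0.09 beside 0.07 for all genes. That is 6.67% of the list, below the 12.9% of all genes. TLR5 was at 13.8 CPM in sham and 9.21 in naïve blood (0.59, 0.32 to 0.85). The chaperone HSP90B1 went from 856 to 286 CPM (−1.58, −1.63 to −1.54) and CD180 from 39.3 to 17.4 (−1.17, −1.36 to −0.996). HSP90B1 stood at 3282 CPM in the plasma-like cells of naïve blood and at 218 and 263 in its B-like and T-like cells. Within B-like, T-like, monocyte-like and basophil/mast-like cells 3 of 42, 4 of 43, 7 of 39 and 5 of 23 genes were past the fold. These shares of 7.14%, 9.30%, 17.9% and 21.7% are near or below the backgrounds of 11%, 8.18%, 17.1% and 22.4% and are not a result about the list. The genes named by the rule were PELI1 in B-like cells (−0.75, −1.32 to −0.22), IRF8, an interferon regulatory factor, in monocyte-like cells, at 172 in sham and 71.2 in naïve blood (1.26, 0.82 to 1.74), and HSP90B1 in basophil/mast-like cells (0.82, 0.43 to 1.25). Among monocyte-like blood cells, the dendritic markers CLEC9A, XCR1 and FLT3 were counted in sham blood only, in cells without CD14. All 6 dendritic markers summed to 355, 538 and 597 CPM in such cells of naïve, sham and SCI blood. Their part in the IRF8 values was not tested.

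In SCI over naïve blood 2 genes of the list were past the fold upwards and 5 downwards of 45, with a median of 0.01 beside 0.07. That is 15.6% of the list, near the 17.3% of all genes. TLR5 was at 15.4 and 9.21 CPM (0.74, 0.49 to 1.00) and TNFAIP3 at 79.6 and 49.9 (0.67, 0.56 to 0.78). CD36, a monocyte-like transcript, was at 3.49 and 19.3 (−2.46, −2.84 to −2.11), HSP90B1 at 265 and 856 (−1.69, −1.74 to −1.65) and IRAK3 at 5.31 and 9.71 (−0.87, −1.21 to −0.54). Within B-like, T-like, monocyte-like and basophil/mast-like cells 2 of 42, 3 of 43, 8 of 37 and 4 of 22 were past the fold. These shares of 4.76%, 6.98%, 21.6% and 18.2% are below the backgrounds of 11.4%, 12.5%, 31% and 22% and are not a result about the list. The 3 in T-like cells were IRAK3 (−0.84, −1.36 to −0.34), IRF5 (−0.71, −1.13 to −0.29) and UNC93B1 (−0.66, −0.92 to −0.40). CHUK in B-like cells (0.62, 0.06 to 1.19) and HSP90B1 in monocyte-like cells (0.63, 0.21 to 1.02) were named as well.

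In SCI over sham blood 0 genes of the list were past the fold upwards and 2 downwards of 45, with a median of −0.02 beside 0.01, or 4.44% of the list beside 12.7% of all genes. These were CD36 (−2.76, −3.14 to −2.41) and IRAK3 (−1.35, −1.68 to −1.03). IRAK3 was also lower within T-like cells, at 3.38 against 7.52 CPM (−1.15, −1.63 to −0.70). IRF7, which drives interferon genes, was lower there as well, at 132 against 201 (−0.60, −0.68 to −0.53). Its level in naïve T-like cells was 178, between these values. In monocyte-like cells 6 of 37 were past the fold, among them IRF8 at 45.6 on 8 UMIs in SCI blood against 172 (−1.83, −3.15 to −0.90). The dendritic markers given above for these cells apply here too. Counts in B-like, T-like and basophil/mast-like cells were 5 of 42, 4 of 44 and 5 of 26. The shares in the 4 classes, 11.9%, 9.09%, 16.2% and 19.2% beside backgrounds of 9.99%, 11.3%, 30.3% and 20.1%, are near or below them. The rule also named PELI1 in B-like cells (0.74, 0.21 to 1.32) and UNC93B1 in basophil/mast-like cells (−0.66, −1.25 to −0.10).

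In SCI cord over SCI blood 10 genes of the list were past the fold upwards and 6 downwards of 45, a share of 35.6% beside the background of 40% given above. CD36 (3.70, 3.14 to 4.24), IRAK3 (2.98, 2.43 to 3.48) and the kinase BTK (1.97, 1.75 to 2.18) were higher in the cord, and TAB1 (−1.17, −2.48 to −0.26), TAB2 (−0.94, −1.49 to −0.48) and PELI1 (−0.74, −1.46 to −0.16) were lower. BTK averaged 367 CPM in myeloid cells of blood, and basophil/mast-like cells were 12.7% of the cord library and 2.19% of SCI blood. In T-like cells 13 of 42 were past the fold, 31.0% beside 37.2% of all genes. TNFAIP3 was higher, at 189 in cord and 88.5 in blood (1.10, 0.79 to 1.38), as was UNC93B1 (1.44, 0.65 to 2.08), and the deubiquitinase CYLD was lower, at 213 and 346 (−0.69, −0.98 to −0.43), as were TLR5, on 2 cord UMIs (−2.01, −5.38 to −0.46), and IRAK1 (−0.70, −1.59 to −0.02). UNC93B1 is lowest in T-like cells among the 3 lineages of blood, and other genes of B-like and myeloid cells, singled out after their values were seen, were higher in these cord cells with it: BTK at 25.9 against 0.515, LY86 at 22.2 against 2.29, IRF8 at 5.56 against 0.744 and CD36 at 1.85 against 0.114 CPM. Markers of other cells were higher too. In T-like cells of cord and SCI blood the 10 monocyte markers summed to 765 and 13.0 CPM, the 10 basophil/mast markers to 384 and 3.49, the 6 of conventional dendritic cells to 106 and 2.58, while the 10 B markers summed to 128 and 129. The 8 natural killer markers summed to 1047 and 470, the 9 of cytotoxic and 6 of regulatory T cells to 2658 and 1866 and to 899 and 489, and the 6 cycling markers to 843 and 397. The part of all these in the changes within T-like cells was not tested. In basophil/mast-like cells 5 of 19 were past the fold, 26.3% beside 39.4%.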

How the data were processed

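The deposited matrices hold UMI counts per gene and cell barcode, which the authors made with Cell Ranger 3.1.0 (per the file headers) on a combined human (hg38) and mouse (mm10) reference. The settings of that step are not given in the sources used here. Barcodes with over 50% of UMIs on human genes were kept. Per library, barcodes beyond 3 median absolute deviations in UMIs, genes, mitochondrial or ribosomal share were removed (828 in all), and so were those marked by Scrublet that had over 3000 genes (258). This left 17020 of 18106. In the cord 0 barcodes were marked by Scrublet, because the number to mark is set from the number of barcodes and rounded down to 0 there. No cord barcode was therefore removed as a doublet in any setting. Counts were scaled to 10000 per cell and log transformed, and 2000 variable genes, 30 components, 15 neighbours and Leiden resolution 0.8 gave the clusters. No member, pathway gene or sex-linked gene entered the variable genes.

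A cluster took the class with at least 2 markers among its 10 leading genes, or otherwise with over 66.7% of the list detected. This naming rule and the gates per cell were settled after the clusters were seen. The members, lists and rules were chosen with earlier results of these data known.

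Named genes are all members, for each the 3 genes with the highest Pearson r among those with at least 100 blood counts, and of the pathway list the genes past the fold with at least 100 counts, at most 3 each way. Examples of pathway levels by lineage were chosen after their values were seen. Profiles of classes are used as the rule states. Profiles of clusters had been computed first and are kept as an alternative added after seeing the data. TLR9 has no nearest genes because it has under 20 blood UMIs. Nearest genes left out ribosomal, mitochondrial, immunoglobulin and T cell receptor segment, and sex-linked genes.

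Alternatives covered the human share, filters, doublets, resolution, gates, TMM, thinning, averaging per cell, the count minimum and the total. Code was tested on simulated counts. Clustering used scanpy 1.11.5, anndata 0.12.19, igraph 0.11.9 and scikit-learn 1.9.0, intervals scipy 1.17.1, tables pandas 2.3.3 and numpy 2.4.6, and figures matplotlib 3.10.9, all in Python 3.11.15. TMM factors came from edgeR 4.0.16 in R 4.3.3.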

Additional observations from a re-analysis of the deposited data

Results flagged for a closer look

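Barcodes with mostly mouse UMIs, which no comparison used, carried the mouse counterparts of the members. The 9 counterparts in the matrix (there is no Tlr10) had 83 UMIs in 1411 host barcodes of naïve blood, 8942 in 1990 of sham blood, 4467 in 1230 of SCI blood and 3032 in 93 of SCI cord. Per 1000000 mouse UMIs in these barcodes, this was 29.0, 1513, 1491 and 1126. Mouse Cd14 made up most of it, with 51, 6763, 3502 and 2134 UMIs. The human members had 4, 21, 10 and 6 UMIs in the same host barcodes, in that order.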

How the results depend on the processing

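The count of members highest in each lineage, 4, 0 and 6, was the same under every alternative run. Thinning each cell to 1000 UMIs changed the number of members past the fold over all cells from 1 to 5 in sham over naïve blood, from 5 to 3 in SCI over naïve blood, from 4 to 1 in SCI over sham blood and from 5 to 3 in cord over SCI blood, and within classes from 1 to 2, 5 to 3 and, in cord, 2 to 1. Of the members past the fold over all cells, only TLR7 in cord over SCI blood came back within it with thinning (−0.06). The other losses over all cells are members left with under 20 counts, which are not compared. Averaging per cell gave 5 over all cells and 3 within classes in sham over naïve blood. A minimum of 1 count gave 2 over all cells there, and within classes 14, 16, 13 and 7 in the 4 comparisons, since more values are counted. Within classes, sham over naïve blood also gave 2 with over 90% human UMIs, 0 at resolution 0.4, 0 at resolution 1.5, 3 with marker gates and 2 with equal cluster weights, and cord over SCI blood gave 4 without the filter on deviations and 6 with gates. Equal class weights gave 1 over all cells in SCI over sham blood.

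Log2 ratios past the fold that changed sign were MYD88 in monocyte-like cells with thinning (0.75 over naïve, 0.78 over sham blood), CD14 in SCI over sham blood with equal class weights (0.053), and in cord over SCI blood TLR4 (−0.83), TLR7 (1.78) and TLR10 (0.52) with equal class weights. TLR10 in T-like cells of the cord changed sign with gates (−0.32) and equal cluster weights (−0.35). In the cord, equal class weights use T-like and basophil/mast-like cells alone, which held 0 cord UMIs of TLR7, 1 of TLR4 and 2 of TLR10. The TLR7 value of 1.78 therefore comes from the 0.5 counts added and is not a higher level in the cord. The same setting took CD14 from 5.09 to 0.99 and MYD88 from 0.03 to −1.0002. Why the other ratios changed sign was not tested. Of 1027 log2 ratios under alternatives, 79 changed sign, 8 of which are those past the fold. Of the 71 that were short of it, 66 had an interval that included 0. The other 5, all over all cells, were TLR10 (0.19) and MYD88 (−0.13) in sham over naïve blood and TLR10 (−0.07) in SCI over sham blood with equal class weights, and MYD88 in sham over naïve blood (−0.004) and TLR1 in SCI over sham blood (0.06) with thinning. Leaving out the 8, 962 stayed within their counting interval and 57 moved beyond it. Of 98 ratios between lineages, 87 stayed and 11 moved. All 51 shares of cells fell on thinning, by construction. Equal weights, the B-like cluster with TCL1A taken alone and nearest genes over clusters were added after seeing the data. Over clusters 7 of the 27 nearest genes stayed among the first 3.

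No paired analysis was possible because each group had 1 library of pooled animals. A difference between groups cannot be told apart from one between libraries or pools. The paper describes blood taken from all mice and cord segments from the SCI mice, so SCI blood and SCI cord can share hosts. SCI blood held 18 monocyte-like cells and the cord 9, so ratios there rest on few UMIs, and values of TLR8 and TLR9 on fewer. Cells thinned to 1000 UMIs hold few UMIs of any receptor, and in the smallest classes few of MYD88 too. Free RNA was not modelled and can add UMIs to any class.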

Other observations

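The values below were chosen after they were seen. The mouse counterparts of the members had 21, 684, 484 and 12 UMIs in the human barcodes of naïve blood, sham blood, SCI blood and SCI cord.

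Among B-like blood cells, the make-up of the class differed between libraries. The cluster led by IGHG1 and SSPN held 253, 10 and 44 cells of the naïve, sham and SCI blood libraries. Its TLR6 level was 45.9 CPM in naïve blood on 48 UMIs and 9.07 in SCI blood on 2 UMIs, and its MYD88 level was 114 and 99.8. TLR1 was at 14.3 there in naïve blood, against 35.0 in the cluster led by TCL1A and VPREB3.

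Among T-like cells, the cluster led by NRP2 and AK5 had a TLR1 level of 22.8, 12.7 and 9.18 CPM in naïve, sham and SCI blood, on 10, 6 and 17 UMIs.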
